A study of Drosophila melanogaster with 4 samples.

Results

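The Cpr genes are a family of insect cuticle protein genes, taken here as the protein-coding genes of Drosophila melanogaster whose symbol begins with Cpr and a cytological number. There were 70 of them among the 13922 protein-coding genes on the 6 main chromosome arms. Of the members, 35 lay on 3L, 21 on 2R, 5 on 2L, 5 on 3R and 4 on X.

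The peaks came from CUT&RUN with an anti-GFP antibody, in which a nuclease held by the antibody cuts out the DNA around its target. There were 2 libraries from wing discs of Osa-GFP females, which carry GFP-tagged Osa, and 2 from discs of yw females, which carry no GFP and show what the antibody and nuclease return without a target. All larvae were at the wandering stage of the third instar and grew at 25 °C, and each replicate pooled 20 to 22 discs. How the tag was put on Osa, and whether the replicates came from separate crosses, is not given in the sources used here, so p-values measure the spread between these libraries, which may be technical.

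Insect cuticle is a layer of chitin fibres set in protein, secreted by the epidermis at its outer face. Cpr proteins carry the Rebers and Riddiford consensus, a chitin-binding domain, and the family has spread largely by tandem duplication into gene clusters. Their transcription follows the ecdysone pulses that time each moult, and the epithelium of the wing disc lays down pupal cuticle soon after the wandering stage. Osa is the signature subunit of the BAP form of the SWI/SNF nucleosome remodeler, which moves or evicts nucleosomes at enhancers and promoters.

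The lists held 5820 and 4987 peaks on the 6 arms for Osa-GFP replicates 1 and 2, and 774 and 4535 for yw replicates 1 and 2. Background depth, in fragments per position as back-calculated from the fold values, was 0.472, 0.46, 0.12 and 0.481 in that order. Replicate 1 of yw was therefore the shallow library, and a missing peak in it carries less weight than in the other 3. A peak list holds only what was called, so a gene with no peak has no measured level here.

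Most Cpr genes had no peak. A gene was counted if a peak interval overlapped its span or the 2 kb on either side, called its window here. Of the 70 windows, 50 had no peak in any list and 20 had at least 1, or 28.6%, against 35.2% of all protein-coding genes. Cpr genes are short, with a median span of 1093.5 bp against 2163 bp for all genes, and their counts are given beside genes of like span. Genes of like span, taken from 10 bins of span with equal numbers of genes, would give 18.4 members with a peak, close to the 20 observed.

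By library, 7 members had a peak of Osa-GFP replicate 1 and 8 of replicate 2, where all genes gave 18.2% and 16.5%. One member had a peak of yw replicate 1 and 12 had a peak of yw replicate 2, where all genes gave 5.28% and 25.6%. Genes of like span would give 8.29, 7.41, 2.23 and 12.9 members in the same order, so each observed count lay near its like-span value. The mean was 7.5 ± 0.707 members per Osa-GFP library and 6.5 ± 7.78 per yw library (SD, n = 2 each). The difference of 1.0 was far smaller than the spread between the yw libraries, which differed in depth. An exact two-sided permutation test over the 4 libraries gave p = 1.0, where the smallest p that 6 assignments allow is 0.333. The sign of the difference depended on which yw library was kept. Without yw replicate 1 it was -4.5, and without yw replicate 2 it was 6.5.

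**Figure D1:**
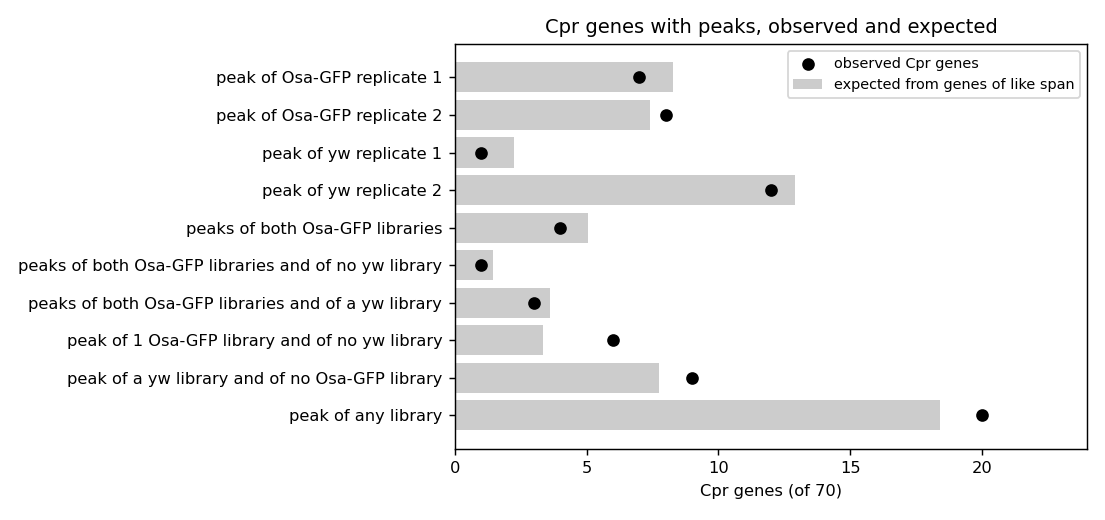
The number of Cpr genes (x axis, of 70) called by each rule on the y axis. Points are the observed counts and grey bars the counts expected from protein-coding genes of like span. For peaks of both Osa-GFP libraries 4 were observed and 5.04 expected, and for a peak of any library 20 and 18.4. Point and bar lie farthest apart for a peak of 1 Osa-GFP library and no yw library, at 6 and 3.35. The rules of 1 Osa-GFP library with yw, of any yw library and of both yw libraries are not drawn.

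Peaks of both Osa-GFP libraries were found in the windows of 4 members, Cpr35B, Cpr62Ba, Cpr66D and Cpr12A. This was 5.71% of the family, against 12.3% of all protein-coding genes and 7.2% of genes of like span, or 5.04 genes expected. One of the 4, Cpr12A, had no yw peak in its window, where all genes gave 2.66% and like span gave 1.43 genes. The other 3 also had a yw peak there, where all genes gave 9.66% and like span gave 3.61 genes. The members' shares were near those of genes of like span, so nothing particular to the family is read from them.

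The strongest of them by the worse of its ranks in both Osa-GFP lists was Cpr62Ba (Dmel_CG13934), on 3L at 1824129 to 1831783. A single Osa-GFP region lay inside its span at 1827933 to 1828409. The caller's fold, which is summit fragments plus 1 over background plus 1, was 10.2 in Osa-GFP replicate 1 and 9.59 in replicate 2, from 14 and 13 fragments. A yw replicate 2 peak overlapped the same region with a fold of 4.73 from 6 fragments, and yw replicate 1 had none. Both Osa-GFP peaks stood in the top 22.3% and 21.8% of their lists, and the yw peak in the top 54.6% of its own. A second yw replicate 2 peak, of 4 fragments, lay 1495 bp outside Cpr62Ba in the neighbouring gene GV1.

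At Cpr35B (Dmel_CG3474), on 2L at 14424315 to 14425189, both Osa-GFP libraries had 3 peaks each in separate stretches of DNA outside the gene. The first region, at 14422107 to 14422578, had a fold of 9.51 in replicate 1 and 6.16 in replicate 2. The second, at 14425522 to 14426009, began 333 bp past the other end of the gene and had folds of 10.9 and 6.85. The third, at 14426311 to 14426872, had folds of 9.51 and 8.22. Replicate 1 gave the higher fold at each of the 3. No yw peak overlapped any of these regions. The yw replicate 2 peak that put Cpr35B among the genes with a yw peak was a separate one of 132 bp, 101 bp past the gene's end, with a fold of 4.73 from 6 fragments. None of the 4 regions overlapped another gene.

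At Cpr66D (Dmel_CG32029), on 3L at 8640439 to 8643584, the region of both Osa-GFP libraries lay inside the gene at 8642042 to 8642415. Its folds were 7.47 in Osa-GFP replicate 1 and 4.79 in replicate 2, from 10 and 6 fragments. The strongest Osa-GFP peak of any Cpr window was also here, with a fold of 12.2 from 17 fragments, 158 bp past the end of Cpr66D. It was called in replicate 1 and not in replicate 2. The yw replicate 2 peak of this window, with a fold of 4.05, was 1876 bp from the gene and inside its neighbour CG13305, so it met neither Osa-GFP region.

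At Cpr12A (Dmel_CG15757), on X at 13543643 to 13544907, the peaks lay before the lower-coordinate end of the gene. One region of both libraries ran from 13541562 to 13542404. It held 1 peak of Osa-GFP replicate 1, with a fold of 5.44, and 2 peaks of replicate 2, with folds of 8.9 and 5.48. Replicate 2 had a further peak nearer the gene with a fold of 3.42 from 4 fragments, the fewest of any peak in that list. Here replicate 2 gave the higher fold, opposite to Cpr35B and Cpr66D.

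Over these 4 genes there were 6 regions with peaks of both Osa-GFP libraries, of which 5 met no yw peak, or 83.3%. Over the whole genome 52.8% of such regions met no yw peak. With 6 regions at 4 genes this share is a description of these loci. The gene table gives no strand, so whether a region lies before a start site or after a gene's end cannot be said.

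**Figure D2:**
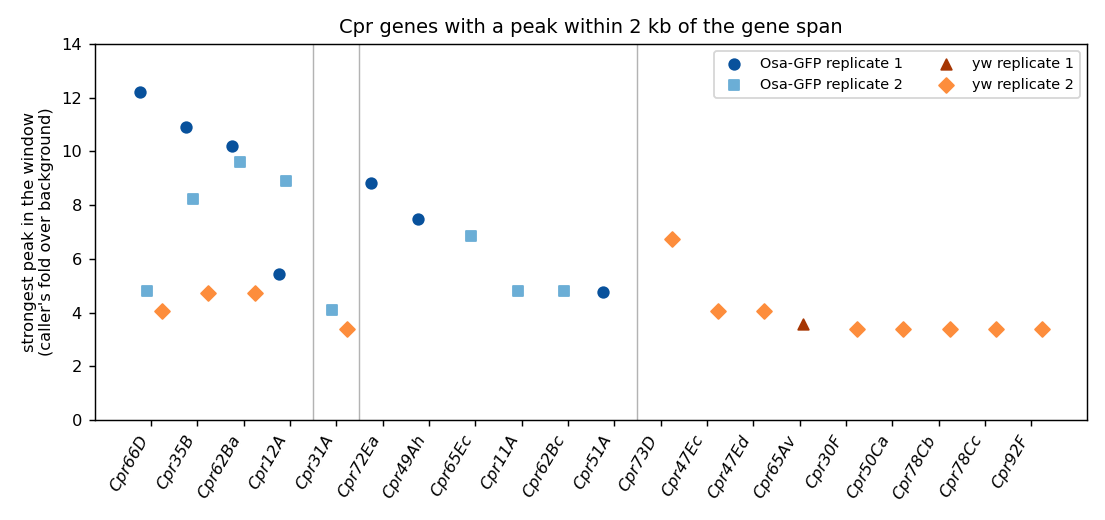
The caller's fold over background (y axis) of the strongest peak in the window of each of the 20 Cpr genes with a peak, by library. Vertical lines part genes with peaks of both Osa-GFP libraries, of 1 Osa-GFP library and yw, of 1 Osa-GFP library alone and of yw alone; folds reach 12.2 at Cpr66D in Osa-GFP and 6.75 at Cpr73D in yw.

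Another 7 members had a peak of 1 Osa-GFP library and not of the other. In 6 of them no yw library had a peak, where all genes gave 5.4% and genes of like span 3.35 members. Replicate 1 supplied 3 of the 6 and replicate 2 the other 3. Cpr72Ea had the strongest of these, a replicate 1 peak with a fold of 8.83 from 12 fragments, 1332 bp outside the gene. Cpr49Ah had replicate 1 peaks with folds of 7.47 and 4.76, and Cpr51A a replicate 1 peak of 4.76. Cpr65Ec had replicate 2 peaks with folds of 6.85 and 4.79, Cpr62Bc had 4.79 and 4.11, and Cpr11A had 4.79. The peak of Cpr11A and the weaker peak of Cpr62Bc lay inside the genes, and the rest lay outside. The seventh member, Cpr31A, had a replicate 2 peak with a fold of 4.11 and a separate yw replicate 2 peak of 3.38, both overlapping its neighbour Pen, an importin alpha gene. Where all genes gave 4.63% for that last class, the family had 1 member.

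Peaks of a yw library without any Osa-GFP peak were found at 9 members, where all genes gave 12.8% and genes of like span 7.76 members. Peaks of both yw libraries were found at 0 members, where all genes gave 3.8% and genes of like span 1.47 members. The 9 members rested on 7 distinct regions, because Cpr47Ec and Cpr47Ed shared a peak, as did Cpr78Cb and Cpr78Cc. The strongest was inside Cpr73D, with a fold of 6.75 from 9 fragments in yw replicate 2, where the gene Ogdh overlaps the same bases. The shared peak of Cpr47Ec and Cpr47Ed had a fold of 4.05 from 5 fragments. Cpr65Av had the one yw replicate 1 peak of the family, inside the gene, with a fold of 3.57 from 3 fragments. No peak in the list of yw replicate 1 had fewer fragments. Cpr30F, Cpr50Ca, Cpr92F and the Cpr78Cb and Cpr78Cc pair each had a yw replicate 2 peak with a fold of 3.38 from 4 fragments. That is the fewest fragments of any peak in the list of yw replicate 2, so these calls sit at its detection limit.

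**Figure D3:**
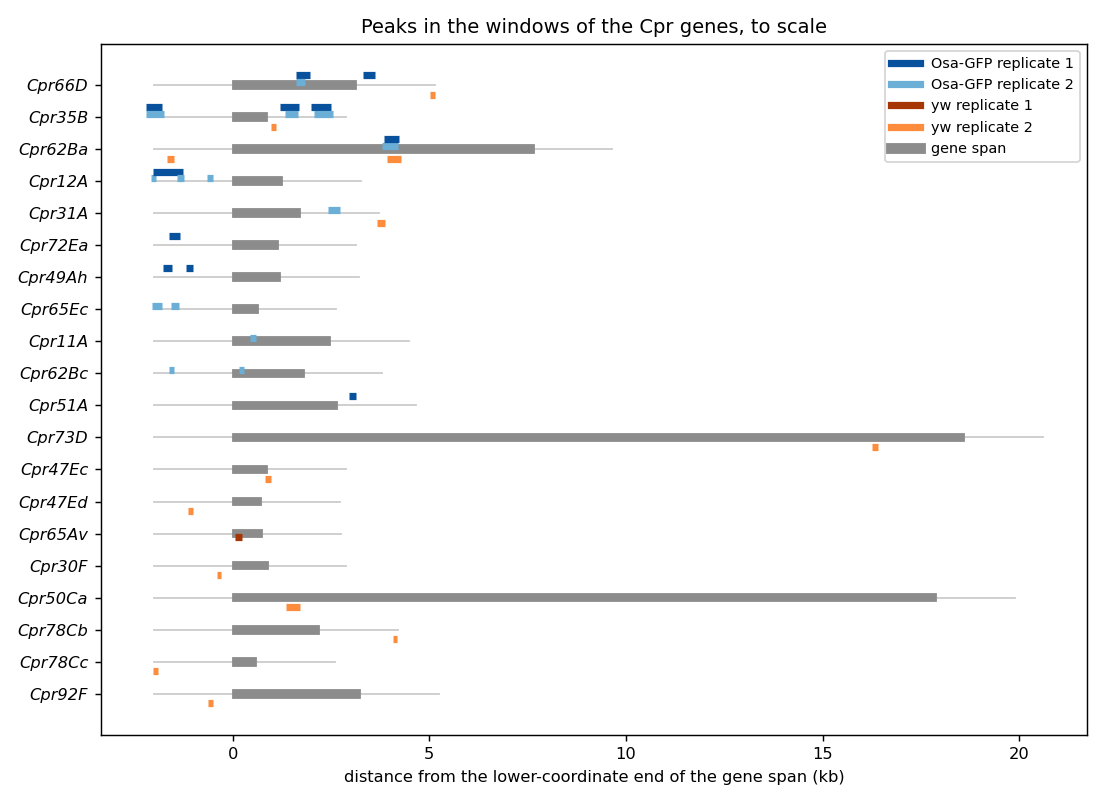
Peaks in the windows of the 20 Cpr genes, drawn to scale as distance in kb from the lower-coordinate end of the gene span (x axis). Grey bars are gene spans, thin lines the window of 2 kb on either side, and coloured bars the peaks of each library; Osa-GFP peaks of both replicates coincide at Cpr66D, Cpr35B, Cpr62Ba and Cpr12A.

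Counted once each, 29 regions lay in Cpr windows, and 23 of them held a peak of 1 library. By class, 5 held peaks of both Osa-GFP libraries and no yw peak, 1 was common to both genotypes, 12 held a peak of 1 Osa-GFP library and 11 held yw peaks alone. Regions of both Osa-GFP libraries made up 20.7% of them, against 34.8% of the 9599 regions of the genome. Regions of yw peaks alone made up 37.9%, against 27.2%. Median width was 190 bp in Cpr windows and 242 bp over all regions. A Cpr span was overlapped by 8 of the 29 regions, 4 of which were regions of yw peaks alone. A further 16 overlapped no gene span.

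The peaks of the family were not among the strongest of any list: the best placed one stood in the top 16.2% and 21.8% of the Osa-GFP lists and the top 76.7% and 27% of the yw lists, replicates 1 and 2 in turn. In Osa-GFP replicate 1 the 11 peaks in Cpr windows had a median fold of 8.83, above the median of 6.12 of the whole list. In replicate 2 the 14 peaks had a median of 5.14, below the list's 6.16, so the replicates differed in direction. In yw replicate 2 the 11 peaks had a median of 3.38 against 4.73. The highest Cpr fold of 12.2 compares with 158 for the highest peak of that same list. A −log10 q of at least 10 was reached by 6 of 11 in Osa-GFP replicate 1, 3 of 14 in replicate 2 and 0 of 11 in yw replicate 2. Over the whole lists the shares were 35.7%, 32.5% and 17.1%.

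Of the members, 49 lay in 12 genomic clusters, in which neighbouring Cpr spans were no more than 20 kb apart, and 21 stood alone. In the clusters 11 of 49 windows had any peak, where genes of like span would give 12.7, and 1 had peaks of both Osa-GFP libraries against 3.48. Of the 21 single genes, 9 had any peak against 5.67, and 3 had peaks of both Osa-GFP libraries against 1.56. The library of yw replicate 2, without GFP, leaned the same way, with 6 clustered members against 8.9 and 6 single ones against 3.97. In yw replicate 1 the counts were 1 against 1.51 and 0 against 0.724. Differences between clustered and single members were not tested, and the one for both Osa-GFP libraries rests on 4 genes. Windows overlap within clusters, so clustered members are not independent.

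The clusters at 64A, 67F, 76B and 97E, with 13 members, had no peak of any library. They are named because they had none, and genes of like span to the family had any peak in 26.3% of cases. A window without a peak is thus the common case. These clusters include Cpr76Bc and Cpr76Bd, with spans of 6328 and 5547 bp, which are long for the family. The 49A cluster on 2R had 8 members over 38.5 kb. Its sole peaks in a member window were those of Osa-GFP replicate 1 beside Cpr49Ah at its end. The 47E cluster, with 7 members over 26.7 kb, had 1 yw peak and no Osa-GFP peak, and Cpr47Ef in it spans 5661 bp.

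The 62B cluster on 3L, with 3 members over 18 kb and no other gene in it, was the one cluster with a region of both Osa-GFP libraries in a member window. Cpr62Bb, its middle gene, had no peak. The 65A cluster on 3L had 7 Cpr members among 11 other genes, 10 of them named as Lcp65A or Acp65A cuticle genes. Its one region of both Osa-GFP libraries, at 6154981 to 6155352, had folds of 10.9 and 9.59 and no yw peak. It lay 2723 bp from Cpr65Ay, outside every Cpr window, and CG13297 was the gene nearest to it.

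**Figure D4:**
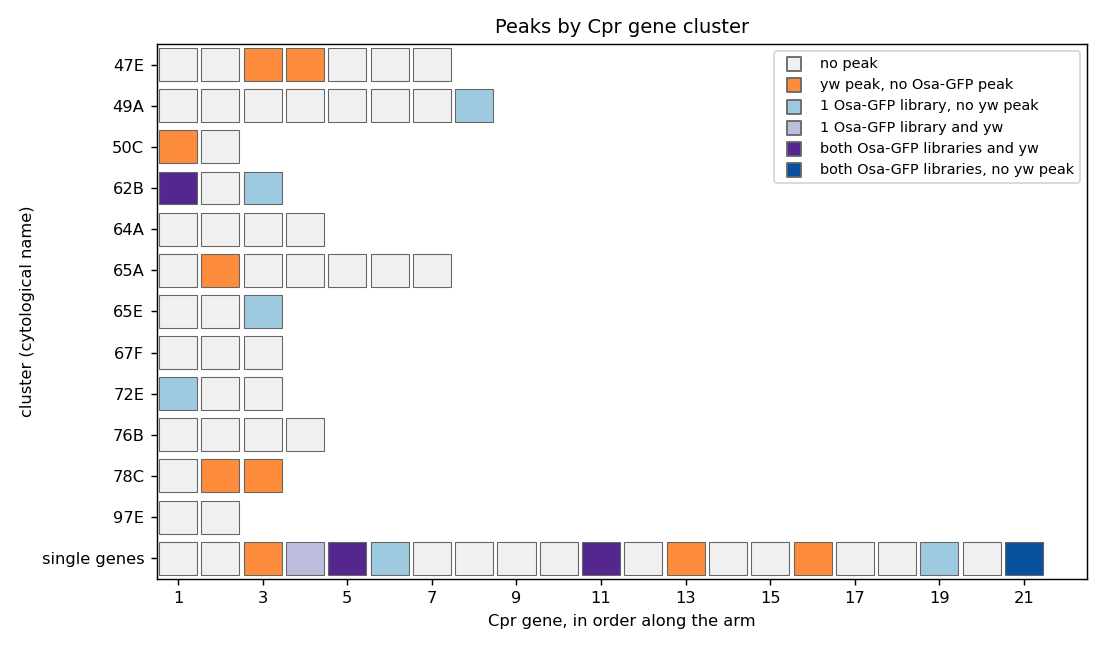
Each square is a Cpr gene, in order along its chromosome arm (x axis), with 1 row for each of the 12 clusters and a last row for the 21 single genes of all arms. Colour gives the libraries with a peak in the gene's window; 4 clusters are blank, and 3 of the 4 genes with peaks of both Osa-GFP libraries are in the last row.

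The distance from a member to the nearest region of both Osa-GFP libraries had a median of 28.5 kb, with quartiles of 12 and 47.3 kb. Genes of like span had a median of 28.7 kb. The farthest member was Cpr50Ca at 128 kb. To the nearest region with a yw peak the medians were 12.1 kb for members and 10.3 kb for genes of like span.

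Other genes of cuticle formation were read in the same way, by counts with no test. Their lists were written from general knowledge, and no protein sequence was checked. Listed under the same consensus but with other names (Lcp, Ccp84A, Acp, Edg, Pcp and resilin) were 28 genes. Of these, 1 had peaks of both Osa-GFP libraries, against 1.31 from like span. It was Ccp84Ab, with folds of 5.44 and 4.79 and no yw peak. Of 25 Tweedle genes, a separate family of cuticle proteins, 1 had them against 1.24. This was TwdlE, with folds of 3.4 and 6.16 and no yw peak. Of 20 matched genes of hardening and pigmentation, such as ple, Ddc and the yellow genes, 0 had them against 2.02. The window of yellow-e3 did meet 1 region of both Osa-GFP libraries, which also held a yw peak. Of the Osa-GFP peaks, only those of replicate 2 reached into that window, the strongest with a fold of 6.85. In these 3 lists, as in the Cpr genes, the count was below its like-span value. The counts are small, and no grouping of the lists is read from these signs. Counting only windows with no yw peak, the consensus genes (1 against 0.506) and Tweedle genes (1 against 0.478) were above like span. The hardening genes (0 against 0.476) and Cpr genes (1 against 1.43) stayed below it.

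The other 5 lists had counts above their like-span values, and the differences were not tested. Counting only windows with no yw peak, chitin synthesis and assembly (2 against 0.452) and chitinases and growth factors (2 against 0.433) stayed above. Obstructor genes (0 against 0.224), zona pellucida genes (0 against 0.455) and timing factors (0 against 0.859) were then below. Of 11 genes of chitin synthesis and assembly, 5 had peaks of both Osa-GFP libraries against 2.89 from like span. They were the chitin deacetylase genes serp, with 4 regions of both libraries, Cda5 with 3, Cda4 with 2 and verm with 2, and exp with 1. The windows of verm and Cda4 had no yw peak, and those of serp, Cda5 and exp had one. The strongest folds were 15.6 and 20.5 at verm. The chitin synthase gene kkv had a peak of Osa-GFP replicate 1 alone, with a fold of 4.08. Of 10 obstructor genes, which encode secreted chitin-binding proteins, Gasp and obst-A had them, against 0.822, and both windows also had a yw peak.

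Of 16 chitinase and imaginal disc growth factor genes, 3 had them against 2.3, namely Cht6 with 3 regions, Cht7 with 2 and Idgf4 with 1, of which Cht6 also had a yw peak. Of 8 matched zona pellucida genes of the apical matrix, 4 had them against 3.21. These were nyo and qsm with 4 regions each and pio and tyn with 1 each, and the windows of all 4 also had a yw peak. At nyo the strongest yw replicate 2 peak had a fold of 20.9, above the 12.2 and 8.9 of the strongest Osa-GFP peaks. Of 14 transcription factors of cuticle timing, 12 had them against 6.73, and all 12 windows also had a yw peak. At 1 of the 12, Eip93F, the peaks of Osa-GFP replicates 1 and 2 (folds of 4.76 and 4.11) did not overlap. It thus had 0 regions of both libraries. Eip74EF and Eip75B, early ecdysone response genes, had 10 regions each, grh, which encodes the epidermal factor Grainyhead, had 9, and the ecdysone-induced gene br had 6. Most of these regions also held a yw peak: 7 at Eip74EF, 6 at Eip75B, 5 at grh and 5 at br. At Eip74EF the strongest yw replicate 2 peak had a fold of 62.1, above the 25.8 and 19.9 of the strongest Osa-GFP peaks. The same held at br (39.2 against 25.1 and 19.2). At Eip75B and grh the Osa-GFP folds were the higher. The median span of these factors was 46196 bp, and the longest bin of span holds genes of widely unequal length, so the like-span value is least exact for them.

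**Figure D5:**
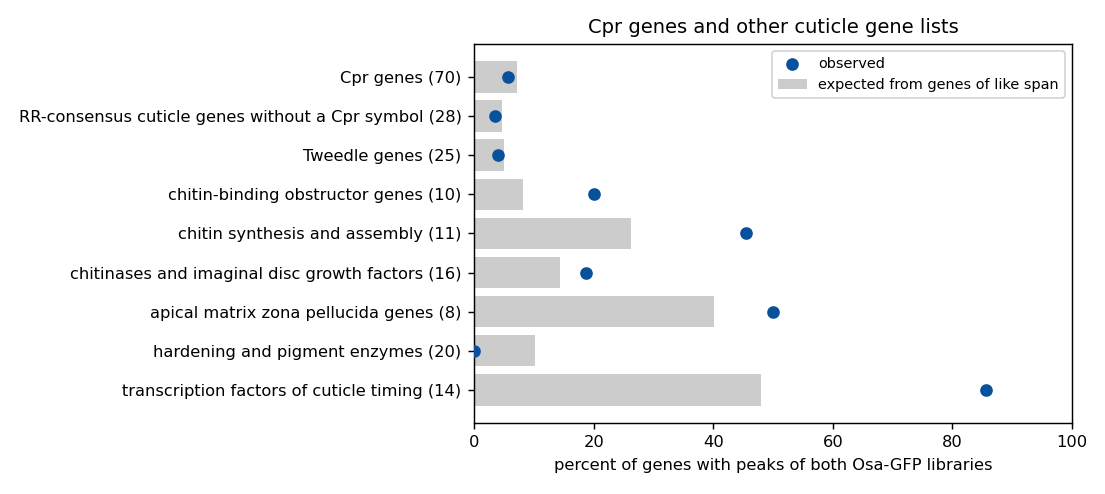
The percent of genes with peaks of both Osa-GFP libraries in the window (x axis) for the Cpr genes and 8 other cuticle gene lists, with the number of genes of each in brackets. Points are observed and grey bars are expected from genes of like span; the Cpr genes stand at 5.71% with 7.2% expected, and the transcription factors of cuticle timing at 85.7%.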

How the data were processed

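The authors deposited 1 narrowPeak list for each of the 4 libraries, on build dm6. The submitters' processing notes name MACS2 2.1.2 as well as deepTools 2.4.1, Bowtie2 2.3.4.1, Picard 2.2.4 and SAMtools 1.10. Names of peaks refer to 1 library per list, so calling was not done on pooled replicates. The calling threshold is not given in the sources used here. In the deposited lists, fold is the ratio of summit fragments plus 1 to the caller's background plus 1, and the deposited −log10 p and q are the caller's own. They were used to describe, rank or filter peaks within a list. The authors' summit offset served for 1 alternative.

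Fragments at a summit were recovered by multiplying the fold by the background plus 1 and taking 1 away. All peaks (100%) came out whole to within 0.01, with a Poisson −log10 p within 9.74e-06 of the deposited one where that was under 100. Depth limits what could be called, and no total read counts were used.

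Gene spans came from a RefSeq table of the same assembly (Release 6), without strand. Peaks overlapping by 1 bp or more were merged into 9599 regions. No promoter, protein or genome sequence was used. Expected counts sum, over members, the share called among genes in the same of 10 bins of span. Overlap routines were tested on simulated data. The work used Python 3.11.15, NumPy 2.4.6, pandas 2.3.3 and SciPy 1.17.1. The text names members with peaks of both Osa-GFP libraries or of both yw libraries, 8 yw-only members by rank and up to 4 genes of each other list with most regions. The remaining named genes were chosen after their values were seen. The members and gene lists were chosen with earlier results of these data known. Of the other lists, 3 entries were not matched, and 1 older name was a duplicate of Cht10. The planned entries abba (timing factors) and trn (zona pellucida genes) were left out as list errors, before any value was read for them.

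Replicate numbers are given by the titles. With 2 numbers the pairing could not be checked from the peak lists, so libraries were left unpaired, and a replicate block was run as an alternative.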

Additional observations from a re-analysis of the deposited data

How the results depend on the processing

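The flank, the q threshold and the number of libraries set how many Cpr genes were called, and the cause of the changes was not tested. The 4 members with peaks of both Osa-GFP libraries became 2 by gene span alone (1.88 expected from like span), 9 with 5 kb on either side (9.84), 2 at −log10 q of 10 or more (2.09) and 0 with the 774 strongest peaks of each list (1.05). The 1 member among them without a yw peak became 4 with 5 kb (2.45 expected) and 0 with equal lists (0.511). This count became 3 at −log10 q of 5 or more (1.93 expected) and 2 at 10 or more (1.34). The 9 members with yw peaks alone became 4 by gene span (3.08 expected), 5 with 500 bp (5.35) and 1 with equal lists (3.24). They became 1 at −log10 q of 5 or more (2.7 expected) and 0 at 10 or more (1.48). The 5 regions of both Osa-GFP libraries and no yw library became 1 by gene span, 2 with 500 bp, 12 with 5 kb, 2 at −log10 q of 10 or more and 0 with equal lists. The difference of 1.0 members per library became -0.5 with equal lists, from 0 members in 3 lists and 1 in yw replicate 1.

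Leaving out 1 library in turn gave 4 to 8 members with peaks of every Osa-GFP library kept, 1 to 4 of them without a yw peak, 1 to 10 members with yw peaks alone, 5 to 13 regions, and differences from -4.5 to 6.5. Like span gave 7.41 for the 8 members without Osa-GFP replicate 1, 8.29 for the 7 without Osa-GFP replicate 2, and 5.04 for the 4 otherwise. The 1 member without a yw peak was 4 without yw replicate 2 (4.22 expected from like span), without Osa-GFP replicate 1 (2.89) and without Osa-GFP replicate 2 (3.33). The 9 members with yw peaks alone were 1 without yw replicate 2 (1.06 expected) and 10 without Osa-GFP replicate 2 (8.67). With a replicate block, the difference was 1.0 with an exact sign-flip p of 1.0, where 0.5 is the smallest possible. The expected 5.04 members were 5.06 with 5 bins of span, 4.9 with 20 and 5.14 within arms. The shallow yw replicate 1 limits what can be said of a missing yw peak.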

Other observations

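Between 2 and 5 kb from a member's span lay 8 regions of both Osa-GFP libraries, at 7 members, 5 of which did not have peaks of both within 2 kb. Counting all distances up to 5 kb, 12.9% of members had a region of both libraries, against 17.4% of all genes and 13.1% of genes of like span. Cpr12A had the most of the 8 regions. Before its lower-coordinate end on X lay 3 further regions, at 13538308 to 13538681, 13539807 to 13540506 and 13540590 to 13541412, and none of them held a yw peak. Their folds were 6.8 and 5.48, 12.2 and 7.53, and 11.6 and 13 in Osa-GFP replicates 1 and 2. The last of these stood in the top 19% and 11.9% of the lists, above any peak in a 2 kb window of replicate 2. Cpr12A was the gene nearest to the 2 regions closer to it, and CG15756 to the other.

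Beside Cpr62Ba, a region inside GV1 on 3L at 1821069 to 1821487 had folds of 10.2 and 8.9 and no yw peak. Beside Cpr51A, a region on 2R at 14517934 to 14518640, in no gene span, had folds of 7.47 and 4.79 and no yw peak. The region within 5 kb of Cpr73D lay inside CG11905 and had folds of 3.4 and 5.48. Cpr65Ax2 and Cpr65Ay both came within 5 kb of the region in the 65A cluster described above, and Cpr62Bb within 5 kb of the one inside Cpr62Ba. With this window 9 members had peaks of both Osa-GFP libraries, where genes of like span would give 9.84.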
